A study of Mus musculus with 18 samples.

Results

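The control keratinocytes of this study came in 2 kinds, and they are compared here miRNA by miRNA, target gene by target gene and pair by pair. CLEAR-CLIP joins a miRNA to the RNA it is bound to inside Argonaute 2, so that each chimeric read names the miRNA and gives the genome position of its target. The set 1 controls were 6 libraries of mouse keratinocytes labelled K14-Cre only, in which the promoter of the basal keratin K14 drives the Cre recombinase. The set 2 controls were 3 libraries of keratinocytes that carried an inducible miR-200 construct and were not induced. Together they are 9 of the 18 libraries of the series and were chosen by their labels. All were grown in E-low calcium medium. Each library came from one confluent dish irradiated with 300 mJ/cm2 of UV light at 254 nm, and Argonaute 2 was precipitated with the 2D4 antibody. Whether a line is 1 clone, from which animals it came and which strain it has is not given in the labels. For comparison, cells labelled miR-200 double knockout (DKO) were present in both sets, with 3 libraries each. In the DKO pools miR-200 family names made 0.152% of reads in set 1 and 0.356% in set 2. Set 2 also held 3 libraries of induced cells, given 3 ug/ml doxycycline for 24 h, used below only for comparison.

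The libraries of a group are pooled in the data used here, with no library name, so each control is 1 pool without replicates. The intervals below are 95% counting intervals, they cover counting error only, and no test between groups was made. The set 1 control pool held 161692 chimeric reads on 117472 distinct combinations of position, strand and miRNA, and the set 2 control pool held 314071 reads on 258909. The DKO pools held 48662 (set 1) and 210003 (set 2) reads. A floor of 3 reads corresponds to 0.00186% (set 1) and 0.000955% (set 2). Genotype, set and sequencing run coincide, so they cannot be told apart in any value given here. In the set 1 control 8.53% of read names carried a leading mark of unstated meaning, which no set 2 name did. Of the reads, 5.24% (set 1) and 9.56% (set 2) recurred with the same position, barcode and miRNA in another pool of their set.

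A miRNA guides Argonaute to RNAs that pair with its seed, bases 2 to 8 from the 5′ end, and the bound RNA is usually repressed. miRNAs with one seed form a family that can share targets. In the epidermis, miR-205 and miR-203 are known as markers of keratinocytes, miR-203 of those leaving the basal layer, miR-31 and miR-21 are known from wounded and proliferating epidermis, and the miR-200 family keeps epithelial character. CLEAR-CLIP counts bound and ligated miRNA, not the amount of miRNA in the cell.

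The mature sequences of the miRNAs on which the comparison turns are given first, from RefSeq, with the seed in capitals. Names in the pools matched a RefSeq mature sequence for 1460 of 1743 miRNAs, which hold 84.5% of the reads. The first group had a much smaller share in set 2. It includes miR-3473b and miR-3473e, which share a seed:
miR-3470b: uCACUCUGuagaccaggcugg
miR-706: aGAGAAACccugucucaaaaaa
miR-1195: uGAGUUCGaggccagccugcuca
miR-3473b: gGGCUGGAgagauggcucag
miR-3473e: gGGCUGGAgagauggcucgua
miR-7667-5p: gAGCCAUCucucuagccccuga
miR-690: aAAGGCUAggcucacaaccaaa

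The second group had like shares in both controls. The miRNAs miR-17-5p, miR-93-5p and miR-106b-5p share 1 seed:
miR-205-5p: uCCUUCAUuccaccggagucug
miR-24-3p: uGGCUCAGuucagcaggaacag
miR-23a-3p: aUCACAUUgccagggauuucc
miR-30c-5p: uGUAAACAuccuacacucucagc
miR-17-5p: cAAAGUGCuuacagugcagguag
miR-93-5p: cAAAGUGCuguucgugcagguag
miR-106b-5p: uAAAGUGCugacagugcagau

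The third group had a larger share in set 2. The 3 members of the miR-29 family differ after the seed only, and let-7a-5p is set beside let-7b-5p, a family member with like shares in both controls:
miR-31-5p: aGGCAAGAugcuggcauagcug
miR-21a-5p: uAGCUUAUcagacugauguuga
miR-125b-5p: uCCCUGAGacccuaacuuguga
miR-29a-3p: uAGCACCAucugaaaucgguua
miR-29b-3p: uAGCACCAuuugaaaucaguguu
miR-29c-3p: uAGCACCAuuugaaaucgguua
let-7a-5p: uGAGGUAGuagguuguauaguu
let-7b-5p: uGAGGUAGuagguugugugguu
miR-148a-3p: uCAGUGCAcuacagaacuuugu

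Most miRNA names were lower in set 2 at the minimum of 20 reads, while the few that stayed level and those that were higher held most of the reads there. A ratio below is the share in set 2 over the share in set 1. A miRNA was called higher or lower where the ratio reached 2-fold and its interval excluded 1, and stable where the whole interval lay within 1.5-fold of equal, which needs many reads. Of 649 miRNAs with at least 20 reads over both controls, 398 (61.3%) were lower in set 2, 95 (14.6%) were higher and 24 (3.70%) were stable, with the other 132 between. At a higher minimum, 115 of 312 miRNAs were lower, 84 higher and 24 stable, so lower names were then no longer most. The 398 lower names held 50.9% of set 1 and 5.31% of set 2 reads. The 95 higher names held 19.9% and 60.0%, and the 24 stable names 12.1% and 13.7%. A lower share in a pool can come from fewer cells with the miRNA, less of it per cell, larger shares of other names or the run. These cannot be told apart.

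**Figure D1:**
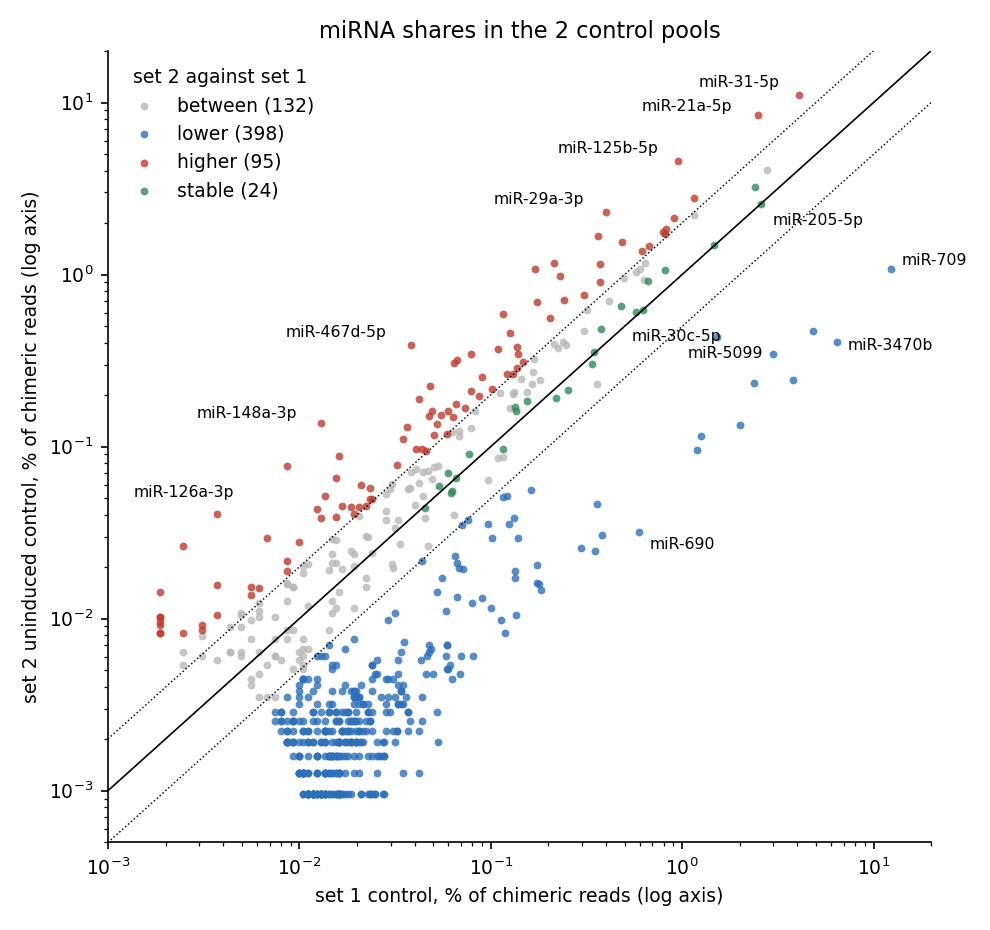
Share of each of the 649 miRNAs in the set 1 control (horizontal) and the set 2 uninduced control (vertical), in % of the pool's chimeric reads on log axes; colours give the call, the solid line is equal share and the dotted lines are 2-fold. miRNAs with fewer than 3 reads in a pool are drawn at its floor. The 398 lower names fill the region under the lower dotted line, with miR-709 far to the right, and miR-31-5p lies at the top.

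The names that were lower comprised a few abundant ones and a long tail. The abundant ones were the 9 names miR-1195, miR-3470a and its relative miR-3470b, miR-3473b, miR-5099, miR-6380, miR-706, miR-709 and miR-7667-5p, which together held 37.5% of set 1 and 3.46% of set 2 reads. They were singled out with earlier results of these data known, so their low ratios are a description. miR-709 held 12.4% of set 1 and 1.08% of set 2 (ratio 0.0873, 0.0841 to 0.0905). miR-3470b held 6.46% and 0.405% (0.0628, 0.0592 to 0.0665). miR-5099 was the least changed of the 9, with 2451 reads in set 1 and 1367 in set 2 (0.287, 0.269 to 0.307). Outside the 9, miR-690 had 962 and 100 reads (0.0535, 0.0431 to 0.0658) on 329 and 80 positions, and counting each position once gave 0.110 (0.0853 to 0.141). For miR-5099 the ratio was 0.132 without reads that recurred in another pool of their set. miR-5615-3p, miR-3473e, miR-669i, miR-1946b, miR-1970 and miR-574-5p lay between 0.0689 and 0.0772. In the long tail, 300 of the 398 lower names (75.4%) have a miRBase number above 1000. So do 1 of 95 higher names (1.05%), 1 of 24 stable names (4.17%) and 5 of the 132 between (3.79%). The part of read number in this contrast was not tested. The lower names had a median of 35 reads over both controls and a median GC content of 54.5% in their mature sequence. The higher ones had 547 reads and 40.9%, and the stable ones 1020 reads and 47.6%.

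Some of the lower names are complementary to each other. miR-3473b and miR-7667-5p share an uninterrupted complementary run of 12 bases, in capitals here within miR-3473b:
miR-3473b: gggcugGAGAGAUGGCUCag
Among the 40 lower names compared, 10 of 780 pairs (1.28%) shared a run of at least 10 bases, against none of the 1431 pairs of the 54 higher names compared. A mature sequence was known for 332 lower and 65 higher names, so not all were compared. The 10 pairs are not separate cases. Several join miR-3473 names with one another or with miR-7667-5p, and others lie in repeats of UG or CA. The longest run, 15 bases between miR-1187 and miR-466i-3p, is such a repeat.

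The targets of these names were read for their place in the genome. For miR-709, 43.8% (set 1) and 37.1% (set 2) of reads lay outside any RefSeq gene, and 49.1% and 49.8% of those with a known gene strand lay antisense to the gene. Its 19996 reads in set 1 lay on 3318 positions. miR-5099 read 99.7% outside genes in both controls, on 100 positions in set 1, of which 99.0% were met again in set 2. miR-690 lay antisense for 68.6% of reads in set 1 and 34.8% in set 2. By contrast, miR-3470b, miR-1195, miR-6380 and miR-7667-5p were between 1.49% and 3.58% antisense in set 1, as was miR-3470a (3.13%). Higher were miR-706 (7.64% in set 1, 11.3% in set 2) and miR-3473b (6.17% and 13.3%). No read of any of the 9 names lay in the mitochondrial genome. Over all miRNAs, 7.12% of set 1 and 2.58% of set 2 reads were antisense, or 3.00% and 2.09% without the 9 names.

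The stable miRNAs included miR-205-5p, the keratinocyte marker, and members of the miR-23, miR-24, miR-30 and miR-17 families. miR-205-5p had 4160 reads in set 1 and 8055 in set 2, and its ratio was 0.997 (0.960 to 1.04). miR-24-3p (1.02, 0.970 to 1.07) and miR-23b-3p (0.997, 0.924 to 1.08), which are made from the same clusters, were equally level. So were miR-30c-5p with 929 and 1907 reads (1.06, 0.977 to 1.14) and miR-93-5p with 559 and 1113 (1.03, 0.925 to 1.14). miR-106b-5p (1.28), miR-17-5p (1.32), miR-23a-3p (1.33), miR-27b-3p (1.36) and let-7b-5p (1.39) were stable by the rule but leaned towards set 2. miR-27a-3p, at 2.76% and 4.03%, lay just outside with 1.46 (1.41 to 1.51). 

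Without the 9 names the remaining shares of set 1 grow, and all other ratios fall by the same factor, so which miRNAs count as stable depends on this choice. miR-205-5p then held 4.12% of set 1 and 2.66% of set 2 (0.645, 0.621 to 0.670), and miR-24-3p stood at 0.660 and miR-30c-5p at 0.684. Of 640 miRNAs, 42 (6.56%) were then stable, 37 (5.78%) higher and 414 (64.7%) lower. Of the 24 stable names 6 stayed stable, among them miR-17-5p (0.851), miR-23a-3p (0.863), miR-27b-3p (0.882) and let-7b-5p (0.899). New among the stable names were miR-27a-3p (0.946), miR-141-3p (1.24) and miR-429-3p (1.10). All 37 names that were higher then had also been higher with all reads.

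**Figure D2:**
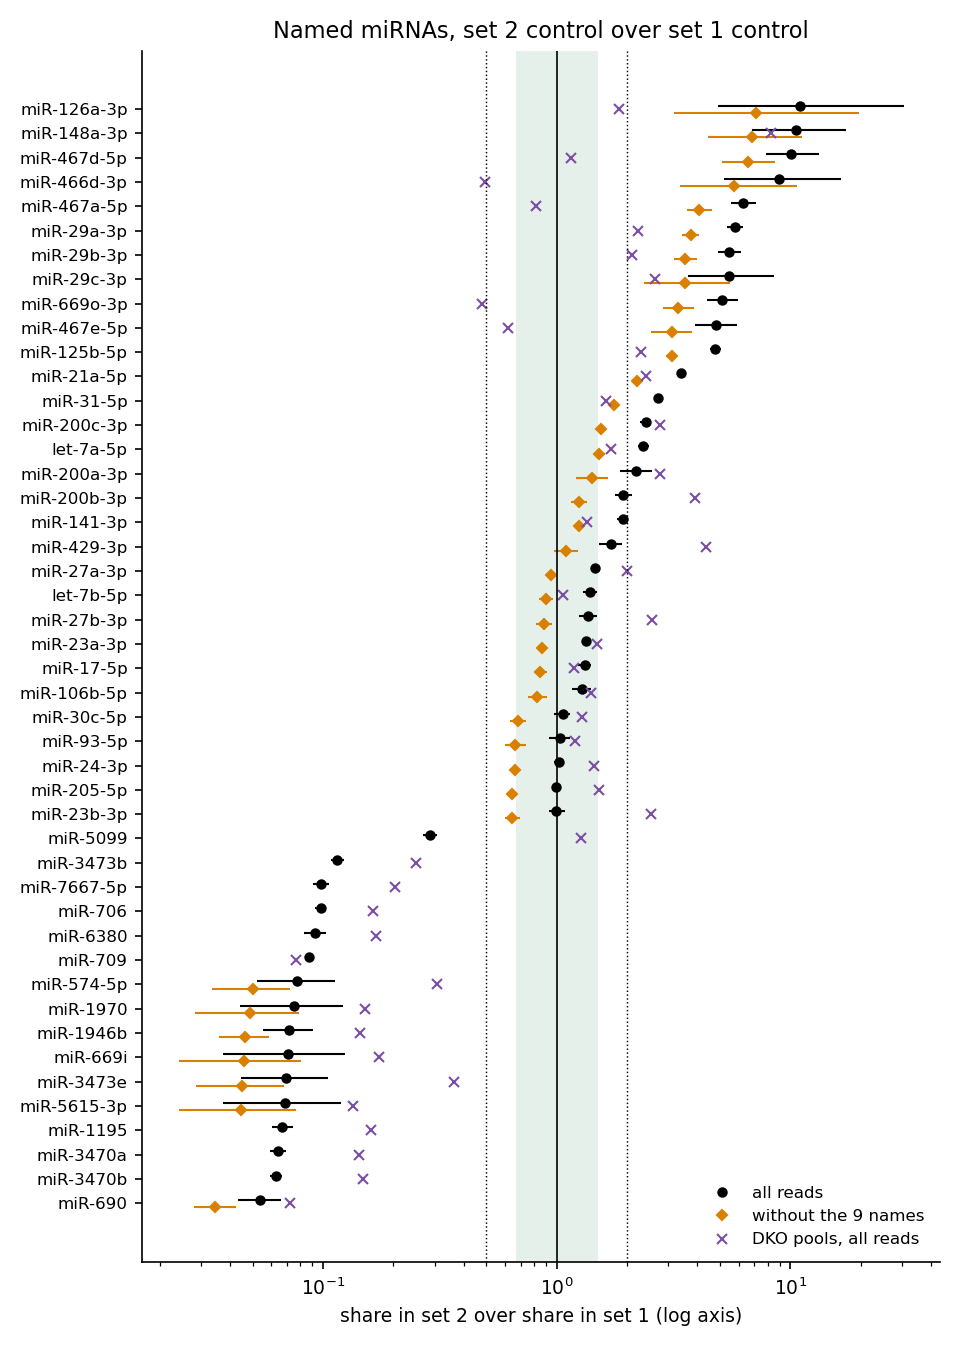
Ratio of shares, set 2 over set 1, for the named miRNAs on a log axis. Black circles are the controls with all reads and orange diamonds the controls without the 9 names, each with the 95% counting interval, and purple crosses are the DKO pools; the green band is 1.5-fold either side of 1 and dotted lines are 2-fold. miR-205-5p sits at 0.997, the lower names sit at or below 0.287, and the DKO crosses of miR-669o-3p and miR-466d-3p fall on the other side of 1 from their controls.

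Among the abundant miRNAs, miR-31-5p, miR-21a-5p and miR-125b-5p were higher in set 2. miR-31-5p rose from 6586 to 34696 reads, from 4.07% to 11.0% of the pool (2.71, 2.64 to 2.78). For miR-21a-5p the counts were 4019 and 26504 (3.40, 3.28 to 3.51), and for miR-125b-5p 1540 and 14313 (4.78, 4.54 to 5.05). The largest ratios with at least 100 reads belonged to miR-126a-3p, an endothelial miRNA with 6 reads in set 1 and 128 in set 2 (11.0, 4.91 to 30.5), miR-148a-3p with 21 and 432 (10.6, 6.84 to 17.3), and miR-467d-5p with 62 and 1221 (10.1, 7.85 to 13.3). With the 9 names left out, miR-125b-5p (3.10), miR-21a-5p (2.20) and miR-148a-3p (6.85) remained higher, while miR-31-5p dropped to 1.76 (1.71 to 1.80) and left the called names.

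Most families sharing a seed had like ratios. Family members named here beyond the miR-29 and miR-200 families were singled out after their values were seen. Of 18 seed families with at least 2 members of 200 or more reads, 14 had all members within 2-fold of each other, and the median spread was 1.38-fold. The exceptions were let-7, miR-181, the miR-125 pair, and miR-3473d with miR-674-5p, which differed by 19.4-fold. In the miR-29 family, known for targeting collagens and other matrix genes, miR-29a-3p had 646 and 7251 reads (5.78, 5.33 to 6.27), miR-29b-3p 346 and 3683 (5.48, 4.91 to 6.14) and miR-29c-3p 26 and 276 (5.47, 3.65 to 8.52). Each of them stayed higher without the 9 names (3.54 to 3.74). Of 5 tested members of the miR-15 and miR-16 family 4 were higher, between 2.13 and 2.98. In the let-7 family, 7 of 9 members were higher, from let-7e-5p at 2.23 to let-7d-5p at 4.27, while let-7b-5p was stable. The miR-30 family had 3 of 5 members stable, 1 higher (miR-30b-5p, 2.03) and 1 between. These calls rest in part on the 9 names: with those left out, none of the 5 miR-15 and miR-16 members, 5 of the 9 let-7 members and none of the 5 miR-30 members was higher. In the miR-181 family miR-181b-5p (0.291), miR-181a-5p (0.358) and miR-181d-5p (0.440) were lower, with miR-181c-5p at 1.09. miR-125a-5p stood at 1.47 and miR-125b-5p, which shares its seed, at 4.78.

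The miR-200 family itself, which the set 2 cells carry in an inducible form, also had a larger share in the uninduced pool. The 5 members together held 3.17% of set 1 and 6.62% of set 2 (2.09, 2.03 to 2.15). miR-200c-3p had 1879 and 8755 reads (2.40, 2.28 to 2.52) and miR-200a-3p 195 and 827 (2.18, 1.87 to 2.57), and both were called higher. Counting each position once, miR-200a-3p was at 1.86 and no longer called. miR-200b-3p (1.93), miR-141-3p (1.92) and miR-429-3p (1.70) were between. The 15 epidermal miRNAs fixed as a list went from 19.9% to 39.8% (2.00, 1.97 to 2.02), with 4 higher, 6 stable and none lower. Over all tested names 14.6% were higher and 61.3% lower. The median ratio of the 107 miRNAs with at least 500 reads was 1.91, near those of this list and of the miR-200 family. Without the 9 names that median was 1.29 over 98 miRNAs. Not counting the 9 names, the list's ratio was 1.29 (1.28 to 1.31), with 2 members higher and 1 lower, miR-222-3p (0.421). In the same counting the miR-200 family ratio was 1.35 (1.31 to 1.39), and none of its 5 members was called higher.

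On a list of 14 miR-466, miR-467 and miR-669 names, which come from a large rodent cluster, more members were higher than lower in set 2. Of 13 tested on the list, 8 were higher, 3 stable and 1 lower, beside 14.6% higher over all tested names. The list's median ratio was 2.71, against 0.221 over all tested names, most of which had few reads. Against the 107 miRNAs with at least 500 reads, whose median was 1.91, the list's median was less apart. miR-467a-5p had 277 and 3391 reads (6.30, 5.57 to 7.15) and miR-467e-5p 108 and 1004 (4.79, 3.92 to 5.89). miR-669o-3p, which is not on the list, had 187 and 1854 (5.10, 4.39 to 5.96). The lower member of the list was miR-466i-5p, with 85 reads in set 1 and 9 in set 2 (0.0545). Names off the list went both ways: miR-669i was lower (102 and 14 reads, 0.0707), as were miR-466i-3p, miR-466k and miR-467g. If the 9 names are left out, 5 of the 13 were higher and 1 lower. The list's summed share was larger in set 2 between the controls (3.04, 2.89 to 3.19) and smaller in set 2 between the DKO pools (0.660, 0.628 to 0.693), or 1.96 and 0.498 without the 9 names. This difference between control and DKO ratios was not tested.

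Both pools held few reads of miRNAs typical for other cell types. The 6 fibroblast and mesenchymal miRNAs summed to 0.0693% of set 1 and 0.00446% of set 2 (0.0644, 0.0341 to 0.113). They were led by miR-214-3p with 40 and 1 reads and miR-143-3p with 32 and 6. Of the 32 reads of miR-143-3p in set 1, 21 lay on the gene Ago2. The 7 blood cell miRNAs summed to 0.0396% and 0.0287%, with miR-142a-3p and miR-451a at no read in either pool and 54 and 85 reads of miR-155-5p. The 2 endothelial names summed to 0.00495% and 0.0490%. Among target genes, the 9 immune markers had 0 and 1 reads. The fibroblast markers summed to 0.00186% and 0.00318%, with Dcn, Lum, Thy1 and Dpt at no read in either pool. For the keratinocyte label, the target RNAs included those of the basal keratins Krt5 (40 and 143 reads) and Krt14 (43 and 145) and of the epidermal regulator Trp63 (44 and 226), with Krt15 at no read. The part of the mesenchymal and endothelial names in other differences was not tested.

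The DKO pools give the set difference in another genotype; they share no library with the controls but share sequencing runs with them. Of the 398 lower miRNAs, 83 had at least 20 reads in the DKO pools, and 54 of these were lower and none higher there. Of the 95 higher miRNAs, 81 had that many reads, and 29 were higher, 7 lower and 45 between. Over all names tested in the DKO pools, 17.4% were higher and 24.2% lower. Among 83 miRNAs that reached 500 reads in each comparison, the log2 ratios correlated with r of 0.72, or 0.27 over 74 without the 9 names; these points share runs and the composition of each pool, and r is a description. Reads that recurred in another pool of their set made 17.4% of the set 1 and 10.1% of the set 2 DKO pool. Their removal gave an r of 0.62 over 79 miRNAs. The spread of the log2 ratio over miRNAs with at least 500 reads (SD) was 1.75 between the controls, 1.21 between the DKO pools, and 0.23 between the induced and uninduced pools of set 2, which share a run.

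Single names did not all follow. miR-148a-3p was higher in both comparisons (10.6 in controls, 8.23 in DKO) and miR-690 lower in both (0.0535 and 0.0724). miR-5099 was lower in controls (0.287) and not in the DKO pools (1.27). miR-467a-5p (6.30 and 0.818) and miR-467e-5p (4.79 and 0.620) were higher between the controls and not between the DKO pools. The difference between the control and DKO ratios was not tested.

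**Figure D3:**
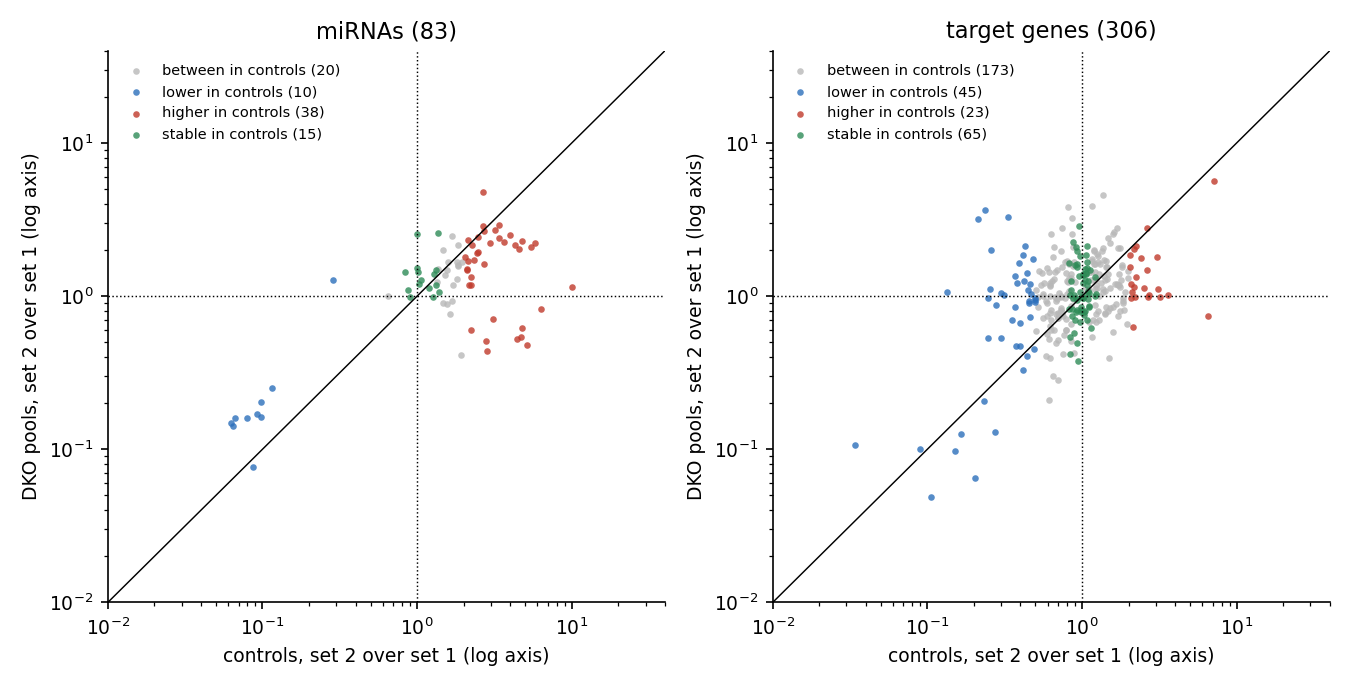
Ratio of shares set 2 over set 1 in the controls (horizontal) and in the DKO pools (vertical), on log axes, for 83 miRNAs with at least 500 reads and 306 target genes with at least 100 reads in each comparison; colours give the call in the controls and the solid line is equality. The log2 ratios correlate with r of 0.72 for miRNAs and 0.43 for genes (0.13 for 269 genes without the 9 names). Without reads shared between pools of a set they are 0.62 over 79 miRNAs and 0.17 over 266 genes.

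By kind of target, mitochondrial RNA had the largest ratio. It took 2.02% of set 1 and 9.01% of set 2 reads (4.47, 4.31 to 4.63), and 2.89 times as much in set 2 without the 9 names. The same class went from 3.58% to 7.58% in the DKO pools (2.11). Of let-7a-5p reads, 20.9% in set 1 and 47.3% in set 2 were mitochondrial, and of miR-21a-5p reads 18.6% and 32.1%, while miR-205-5p had 0.529% and 1.40%. With mitochondrial and structured RNA targets left out, let-7a-5p fell below the 2-fold limit (1.69), as it did with each position counted once (1.49) and without reads that recurred in another pool of their set (1.95). Targets outside genes took 12.6% and 6.24% of reads (0.495, 0.485 to 0.505), but 5.94% and 5.37% without the 9 names. Protein-coding genes held 77.5% and 76.9%.

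A smaller part of the target genes than of the miRNAs was called. Of 4115 genes with at least 20 reads over both controls, 627 (15.2%) were higher in set 2, 472 (11.5%) lower and 88 (2.14%) stable, with a median ratio of 1.08. Leaving out the 9 names gave 339 higher (9.12%), 369 lower (9.93%) and 63 stable (1.70%) of 3716. Of the 472 lower genes, 232 stayed lower then, and of the 88 stable genes 17 stayed stable. By name, 78.3% of the 1705 miRNA names of set 1 were seen in set 2, where 1155 of the 1373 names would be seen at set 1 depth. The set 1 control met 86.2% of its 10297 genes again in set 2. At set 1 depth, set 2 would show 10416 of its 12075 genes, close to the number in set 1.

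Stable target genes were long, with a median span of 153 kb against 54.6 kb for all tested genes. The median was 28.9 kb for the higher genes and 65.6 kb for the lower ones. A stable call needs many reads, and reads were assigned over the whole span. The part of read number in this difference was not tested. Ahnak, a giant scaffold protein under the plasma membrane, had 597 reads in set 1 and 1410 in set 2 (1.22, 1.10 to 1.34), with reads of 144 miRNAs. Fmnl2, a formin that builds actin filaments, had 283 and 596 (1.08), and Pard3, a cell polarity protein, 236 and 496 (1.08, 0.925 to 1.27). The lipid desaturase Scd2 had 221 and 533 (1.24, 1.06 to 1.46). These 4 stayed stable without the 9 names (0.796, 1.16, 0.912 and 0.802). Actn1, an actin crosslinker (0.931), the transcription factor Foxp1 (0.853), Rbms3 (0.847), Wnk1 (0.840), Bcar3 (0.836) and Magi1 (0.823) were stable with all reads and between without the 9 names (0.641 to 0.740).

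In the DKO pools 9.02% of the 2693 genes tested were higher in set 2 and 6.65% lower. Of the 627 genes higher between the controls, 334 had at least 20 DKO reads, of which 34 were higher and 19 lower there. Of the 472 lower genes 307 had that many, of which 70 were lower and 14 higher.

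The nuclear noncoding RNAs Neat1 and Malat1 were higher in set 2. Neat1, which holds paraspeckles together, was the most frequent named target, with 906 reads in set 1 and 4624 in set 2 (0.560% and 1.47%; 2.63, 2.45 to 2.82), and 2.78 in the DKO pools. Its leading miRNA was miR-6409 in set 1 with 208 of its reads, and miR-31-5p in set 2 with 378. Malat1 had 352 and 1481 reads (2.17, 1.93 to 2.44) and 2.04 in the DKO pools. Counting each position once, Malat1 fell to 1.79 and was no longer called. Neither was above 2-fold without the 9 names, where both ratios were 1.75.

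The largest ratios towards set 2 came from genes with 1 to 10 reads in set 1, so their intervals are wide. Egln3, a prolyl hydroxylase of the hypoxia response, had 1 and 59 reads (30.4, 5.24 to 1220), spread over 29 miRNAs. Fos, a subunit of AP-1, had 2 and 63 (16.2, 4.31 to 137), and miR-101b-3p made 31 of the 63. Irs2, an insulin receptor substrate, had 2 and 58 (14.9), Ckap4 3 and 75 (12.9), and Hyal2, a hyaluronidase, 4 and 80 (10.3), of which miR-31-5p made 59. Cdsn, the corneodesmosin of cornifying cells, had 10 and 210 reads (10.8, 5.76 to 22.9). Of its set 2 reads, miR-17-5p made 95 and miR-20a-5p 61, although miR-17-5p itself was stable. Counting each position once lowered Cdsn, on 9 and 106 positions, to 5.34 and Hyal2, on 4 and 47, to 5.33, and Fos to 10.7. These 6 genes stayed higher under that counting and without the 9 names (6.66 to 19.7). Aldoart1 (1 and 49 reads, 25.2) is a copy of an aldolase gene, so its reads may belong to that gene, and its ratio is uncertain (7.26 with each position counted once).

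The lowest ratios included genes read by miR-709 alone. Chil5 had 89 reads in set 1 and none in set 2, all of miR-709; against the floor of 3 reads its ratio is at most 0.0174. Meikin (227 and 12 reads, 0.0272), Syt6 (249 and 14, 0.0289), Gm35818 (425 and 28, 0.0339) and Slc9a9 (264 and 21, 0.0410) had no set 1 reads of any other miRNA, and none of the 4 had enough reads to be tested without the 9 names. These reads lay on few positions, 7 and 0 for Chil5, 14 and 5 for Meikin, 7 and 4 for Syt6, 12 and 7 for Gm35818 and 17 and 8 for Slc9a9. With each position counted once the ratios were nearer to 1: at most 0.194 for Chil5, 0.162 for Meikin, 0.265 for Gm35818 and 0.214 for Slc9a9, while Syt6, at 0.259 (0.0557 to 1.02), was no longer called. In Gm35818 and Slc9a9 all reads with a known gene strand were antisense. The DKO ratios of Meikin, Syt6, Gm35818 and Slc9a9 were between 0.0535 and 0.147. That of Chil5 was 0.00927, on 25 and 1 DKO reads. Over all lower genes, 21.4% of set 1 reads were antisense, against 1.45% for the higher genes and 6.38% for all tested genes. Without the 9 names these were 6.02%, 0.383% and 2.07%.

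Other genes were lower also without the 9 names. Ccn2, a secreted growth and matrix regulator, had 285 reads in set 1 and 74 in set 2 (0.134, 0.102 to 0.173; 0.0865 without the 9 names), and 1.07 in the DKO pools. Igfbp2, which binds insulin-like growth factors, had 104 and 3 reads (0.0149, 0.00301 to 0.0446), and 1.27 in DKO; miR-3473b and miR-3470b made 45 and 28 of its 104 reads, and its ratio without the 9 names was 0.0345. Ext1, an enzyme of heparan sulphate synthesis, had 415 and 204 (0.253, 0.213 to 0.300), and stood at 1.11 in the DKO pools. Ltbp1, which holds latent TGF-beta in the matrix, had 60 and 16 (0.137, 0.0738 to 0.241), and Ece1, the endothelin-converting enzyme, 165 and 59 (0.184, 0.134 to 0.249). Ccn2, Igfbp2, Ext1, Ltbp1 and Brinp3 were thus lower between the controls and between 1.07 and 1.27 in the DKO pools with all reads. Without the 9 names their DKO ratios ran from 0.808 (Ccn2) to 1.60 (Igfbp2). Of the other largest lower ratios without the 9 names, Iqcg (0.0673), Ube2v1 (0.164) and Snn (0.267) were lower in the DKO pools too. Ece1 (0.537), Cnksr3 (0.757) and Dennd1b (3.71) were between there, and Galnt18 was higher (3.20). The difference between control and DKO ratios was not tested.

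**Figure D4:**
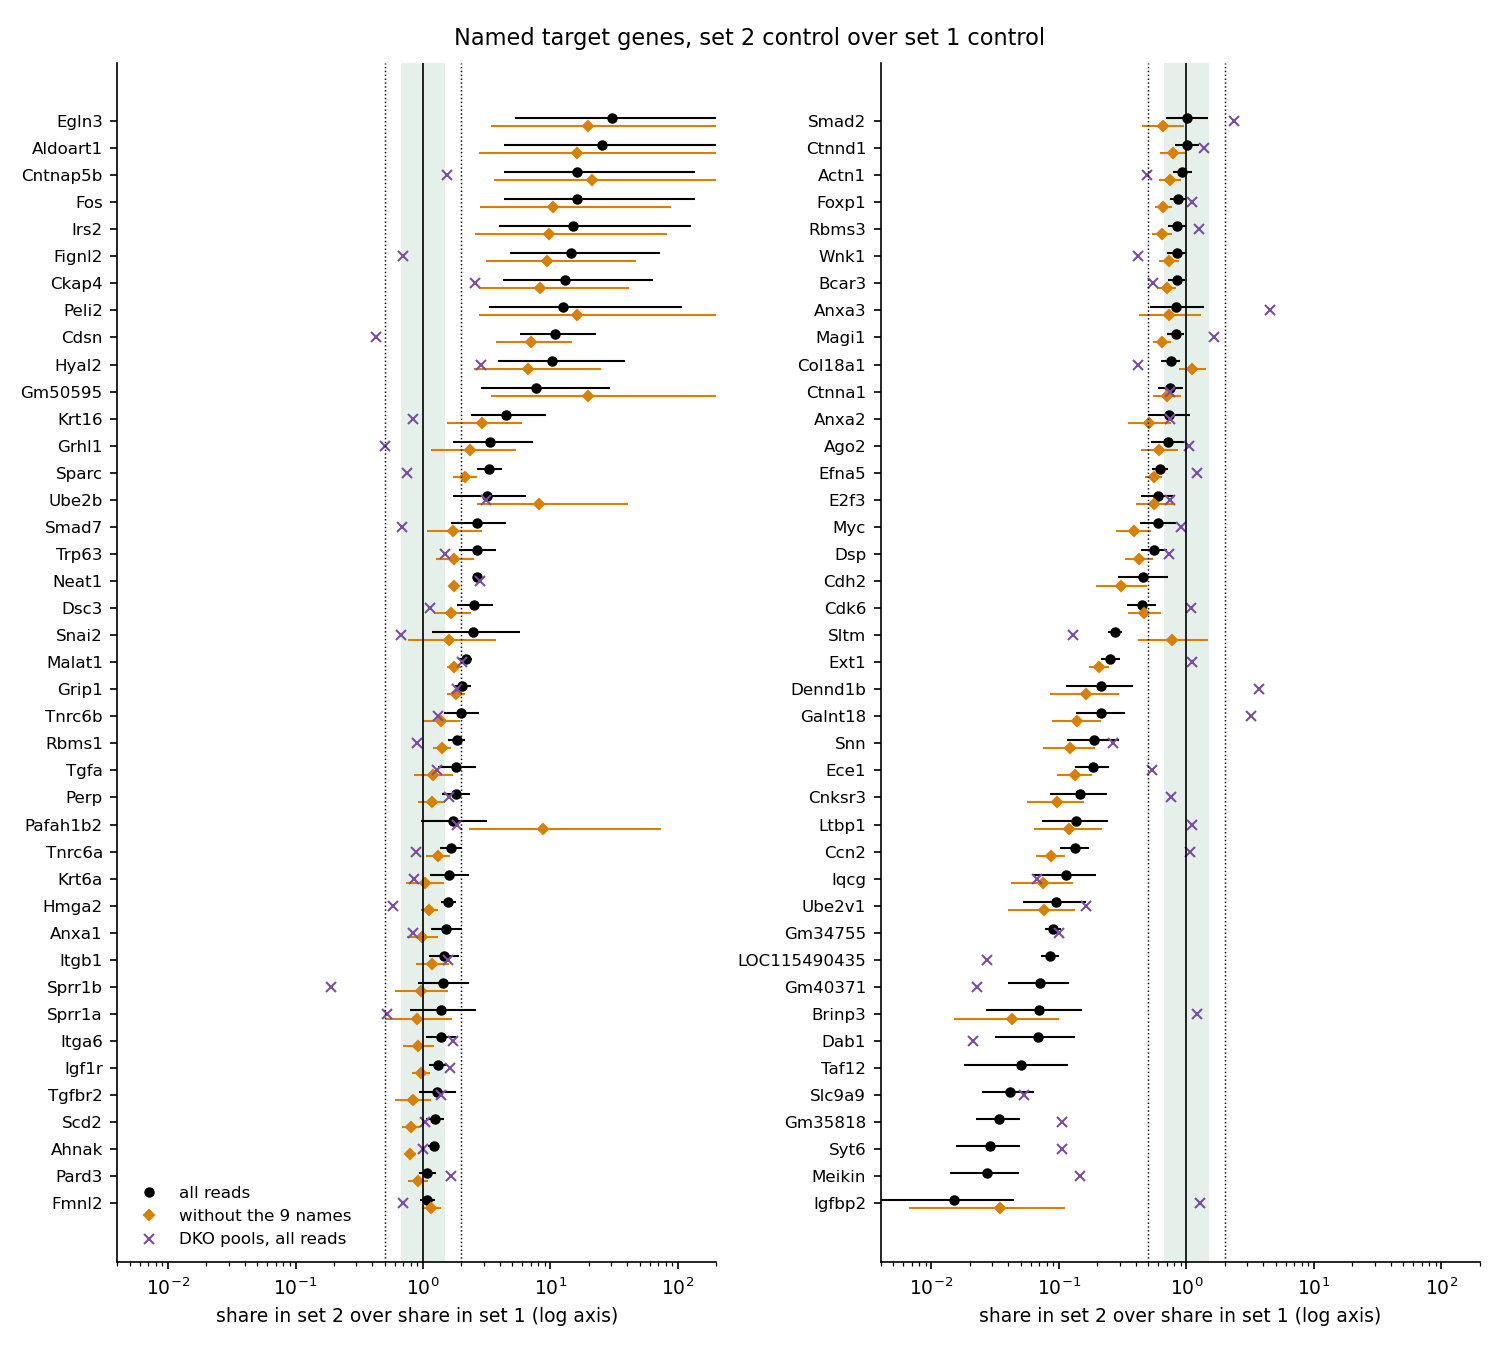
Ratio of shares, set 2 over set 1, of named target genes with reads in both controls, sorted, on a log axis. Symbols are as for the miRNAs, intervals beyond the axis are clipped, and crosses are drawn only for genes with at least 20 DKO reads. Ahnak and Fmnl2 lie in the 1.5-fold band, Egln3 and Fos lie far to the right with wide intervals, and Igfbp2, Ccn2 and Ext1 lie left of the band with their DKO crosses near 1.

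The gene lists are read against 15.2% higher and 11.5% lower over all tested genes and a median ratio of 1.08. Members beyond the 3 with the most reads of a list were singled out after their values were seen. Of 12 tested basal keratinocyte genes 1 was higher (Trp63, 2.64, 1.91 to 3.74), none lower and 3 stable (the integrin Itga3, the laminin chain Lama3 and the hemidesmosomal collagen Col17a1), and the list's median was 1.12. Of 8 desmosome genes 3 were higher, the desmosomal cadherins Dsc3 (46 and 226 reads, 2.53), Dsg3 (39 and 206, 2.72) and Dsg2 (3 and 21, 3.60), and none lower (median 1.60). The plaque protein Dsp, with 135 and 146 reads, was at 0.557 (0.438 to 0.709). Of 8 differentiation genes 2 were higher, the transcription factor Grhl1 (10 and 65 reads, 3.35) and the receptor Notch3 (4 and 30, 3.86), with a median of 1.66. Of the 6 tested genes of activated keratinocytes only the stress keratin Krt16 was called higher (11 and 96, 4.49), with Krt6a at 1.59 and a median of 1.57. Without the 9 names none of the basal, desmosome, adherens junction or TGF-beta members was called higher, and 3 members were newly lower, namely Dsp (0.421, 0.327 to 0.543), the actin crosslinker Actn4 (0.463) and the BMP receptor Bmpr2 (0.495). Grhl1 (2.33) and Krt16 (2.91) were still higher. With all reads, the summed ratio of the differentiation list was 1.77 (1.40 to 2.26) between the controls and 0.405 (0.318 to 0.519) between the DKO pools. The activated list had 1.83 and 0.760, the desmosome list 1.38 and 1.05 and the basal list 1.33 and 1.35. These differences between control and DKO ratios were not tested.

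Matrix genes went both ways. Of 11 tested, Sparc, a collagen-binding matrix protein (94 and 600 reads, 3.29, 2.64 to 4.13), Col7a1, the collagen of anchoring fibrils (13 and 173, 6.85), and the integrin Itgav (28 and 150, 2.76) were higher, Ccn2 was lower and Thbs1 was stable (0.991). In Sparc, miR-29a-3p and miR-29b-3p made 47 and 12 of the 94 reads in set 1 and 310 and 124 of the 600 in set 2. Of 13 cell cycle genes 4 were higher, namely the inhibitors Cdkn1a (16 and 131, 4.22) and Cdkn1b (17 and 88, 2.66) and the cyclins Ccna2 and Ccnd2, and Cdk6 was lower (128 and 111, 0.446). Of 12 tested without the 9 names, 2 were higher, Cdkn1a (3.64) and Ccna2 (4.33), and 2 were lower, Cdk6 (0.466) and the growth regulator Myc (0.386, 0.281 to 0.531). Among 14 TGF-beta and BMP genes Smad7, an inhibitor of the pathway (21 and 108, 2.65), and the receptor Tgfbr1 (12 and 49, 2.10) were higher, none was lower, and the signal carrier Smad2 was stable (1.01). Of 9 small RNA machinery genes none was higher and Dgcr8, the partner of Drosha, was lower (30 and 21, 0.360), joined by Drosha itself (0.470) without the 9 names. Of 6 annexins Anxa5 (0.450) and Anxa11 (0.381) were lower and none was higher, and without the 9 names 1 of 5 was lower (Anxa5, 0.291).

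Pairs of a miRNA and a gene were spread thinly. The controls held 64040 and 123852 pairs, of which 22342 were met in both, 34.9% of the set 1 and 18.0% of the set 2 pairs. By position, 22.8% of the 117472 set 1 targets were overlapped by a target of the same miRNA in set 2 by at least 10 bases on the same strand, and 14.5% of the 258909 set 2 targets were met in set 1. Of 4332 pairs with at least 10 reads, 859 (19.8%) were higher in set 2, 1220 (28.2%) lower and 1 (0.0231%) stable. Few pairs of this size have the reads for a call of stable. Without the 9 names 277 (7.86%) were higher, 553 (15.7%) lower and none stable, of 3525.

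The stable pair was miR-30c-5p with Ahnak, with 114 reads in set 1 and 221 in set 2 (0.998, 0.793 to 1.26), on 30 and 80 positions. It was no longer called stable with each position counted once (1.21, 0.786 to 1.91), after dividing by the median miRNA ratio, without the 9 names, or without reads that recurred in another pool of their set (0.726, 0.561 to 0.941), which were 34.8% of its set 2 reads. Of its reads, 108 and 219 lay at one site at chr19:9018616-9018709 on the plus strand of mm10, within the Ahnak gene. It made 12.3% and 11.6% of all miR-30c-5p reads. The same miRNA with Ccn2 gave one of the largest differences: 159 and 5 reads (0.0162, 0.00519 to 0.0386) on 51 and 5 distinct positions. The site with most of them, chr10:24598279-24598353 on the plus strand within the Ccn2 gene, had 130 and 5 reads. As a share of miR-30c-5p reads this target went from 17.1% to 0.262% (0.0153, 0.00491 to 0.0365). In the DKO pools the pair had 27 and 59 reads (0.506). In the controls, the next most frequent miRNAs of Ccn2 in set 1 had 29 and 21 reads (miR-18a-5p) and 14 and 1 reads (miR-23a-3p). Thus miR-30c-5p, itself level between the controls, had like read shares on Ahnak and unlike ones on Ccn2 with all reads. The Ccn2 pair was 0.0445 with each position counted once and 0.00710 without the recurring reads.

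A pair's share follows the level of its miRNA, so pairs were also read as a share of that miRNA's reads. By this reading 155 pairs (3.58%) were higher, 304 (7.02%) lower and 4 (0.0923%) stable. Of the 859 higher pairs 99 (11.5%) were also higher within their miRNA, and of the 1220 lower pairs 152 (12.5%) were also lower. Without the 9 names these were 79 of 277 (28.5%) and 189 of 553 (34.2%). The miR-709 pairs show it: with Gm34755, 1179 and 202 reads gave a ratio of 0.0882, but 5.90% and 5.96% of miR-709 reads (1.01, 0.866 to 1.17). Counting each position once, that pair's ratio was 0.161. With LOC115490435 the ratio was 0.0814 (0.237 with each position once) and the ratio within miR-709 0.933 (0.789 to 1.10). Both sites, chr6:128799439-128799484 on the minus strand and chr6:128843343-128843393 on the plus strand, are antisense to their gene. With Sltm, which encodes an RNA-binding protein, the share within miR-709 rose (3.46% and 9.94%; 2.88, 2.52 to 3.28), although the pair was lower over all reads (691 and 337; 0.251). Its reads lay on 11 and 7 positions, and 51.1% (set 1) and 75.7% (set 2) of them recurred in another pool of their set. Without such reads the pair's ratio over all miRNAs was 0.131 (0.102 to 0.167). The ratio within miR-709 was then 1.76 (1.36 to 2.24), below 2-fold, in a setting chosen after seeing the data.

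**Figure D5:**
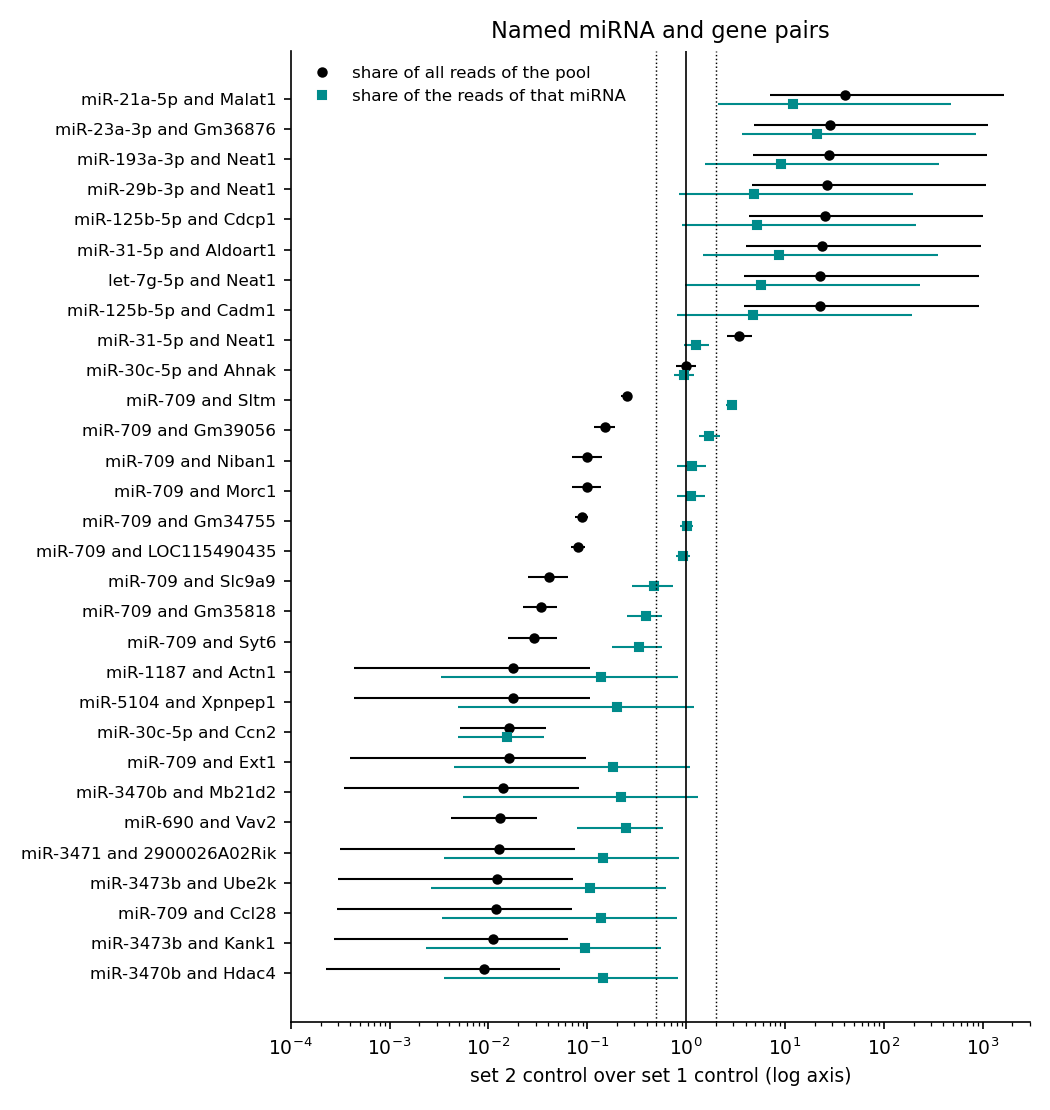
Ratio set 2 over set 1 of named pairs with reads in both controls, on a log axis, with 95% counting intervals. Black circles use the share of all reads and teal squares the share of that miRNA's reads; the dotted lines are 2-fold. The circle and the square of miR-30c-5p and Ahnak lie near 1, those of miR-30c-5p and Ccn2 lie at 0.0162 and 0.0153, and the squares of miR-709 with Gm34755 and LOC115490435 lie at 1.01 and 0.933 while the circles lie at 0.0882 and 0.0814.

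Other pairs differed beyond their miRNA with all reads counted. miR-222-3p with Ece1 had 58 reads in set 1, all at chr4:137963834-137963892 on the plus strand, and none in set 2, although miR-222-3p had 577 and 730 reads; against the floor, its share within the miRNA is at most 0.0409 of that in set 1. miR-690 with Vav2 had 197 and 5 reads (0.0131, 0.00420 to 0.0310), antisense for 99.0%, and a ratio of 0.244 within the miRNA. Counting each position once gave 0.0630 (0.0193 to 0.161) over all reads, beside 0.110 for miR-690 itself. The pair held 36 of the 329 miR-690 positions in set 1 and 5 of 80 in set 2. By position, a difference beyond the miRNA is thus not shown for this pair. Towards set 2, miR-21a-5p with Malat1 had 1 and 79 reads (40.7, 7.09 to 1630; 0.0249% and 0.298% of miR-21a-5p reads), on 75 positions in set 2. miR-23a-3p with Gm36876 had 1 and 55 (28.3; 21.2, 3.65 to 854, within the miRNA), all antisense, and 12.7 over all reads with each position counted once. For miR-193a-3p with Neat1, 1 and 54 reads gave 27.8 (4.78 to 1120) and 9.04 within the miRNA. By contrast, miR-31-5p with Neat1, the most frequent pair of Neat1 in set 2, had 57 and 378 reads (3.41, 2.58 to 4.59) but 0.865% and 1.09% of miR-31-5p reads (1.26, 0.951 to 1.69). Exon and UTR annotation was not used here, so these sites are placed only within whole gene spans.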

How the data were processed

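The files deposited by the authors hold positions and names, a unit other than counts: each line is 1 chimeric read with target position, strand, barcode of 4 bases and miRNA name. The tools were bedtools, Novoalign and cutadapt with mm10 positions, per the submitters' processing notes, with versions and settings not given in the sources used here. The authors pooled the libraries of each group. Starts were read as 0-based and printed 1-based.

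Reads were assigned to RefSeq genes (GRCm38.p6, the mm10 assembly) by the midpoint of the target, with mitochondrial and structured RNAs taking precedence, then genes of miRNAs, then coding before noncoding genes. Targets within several genes of a class, mitochondrial and structured RNA targets were counted, not named. Gene strand was known for 27025 of 49980 genes, from the RefSeq promoter table. Shares are reads over all reads of the pool; ratios have conditional exact 95% intervals (scipy 1.17.1, numpy 2.4.6, pandas 2.3.3, Python 3.11.15). Minimums over both pools were 20 reads for miRNAs and genes and 10 for pairs. The method was tested on simulated data.

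Named were, for miRNAs, the 15 with the highest mean share, the 10 largest ratios per direction with at least 100 reads, the 10 leading stable ones, the 9 names and the miR-200 family. For genes they were the 15 leading ones, the 10 largest ratios per direction (at least 50 reads, with and without the 9 names), the 10 leading stable ones and the 3 leading members of each list. For pairs they were the 10 leading ones, the 8 largest per direction (at least 30 reads, with and without the 9 names) and up to 10 stable ones. Some are given only in the figures, and 1 gene is not reported here. The members and lists were chosen with earlier results of these data known. Alternatives were each position counted once, no 9 names, another scaling, other minimums and limits, and leaving out lane-shared reads, marked names, the miR-200 family, mitochondrial and structured targets, or the antisense strand. The melanocyte, endothelial, muscle and neural lists were also summed. With all reads they were at most 0.0490% of a control pool for miRNAs and 0.00928% for genes.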

Additional observations from a re-analysis of the deposited data

Results flagged for a closer look

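Among the features named by the fixed rule, in 4 cases the controls and the DKO pools went in opposite directions between the sets, each past 2-fold with an interval that excludes 1; the difference between the comparisons was not tested. miR-669o-3p was higher in the set 2 control (5.10) and lower in the set 2 DKO pool (0.478). miR-466d-3p had 8.90 in the controls and 0.492 in the DKO pools. The target gene Cdsn had 10.8 in the controls and 0.428 in the DKO pools, on 13 and 24 DKO reads. Galnt18, an enzyme of protein glycosylation, had 0.213 in the controls, on 75 and 31 reads, and 3.20 in the DKO pools, on 11 and 152. Among all called features with enough DKO reads, 7 of 81 higher miRNAs, 19 of 334 higher genes and 5 of 308 higher pairs were lower between the DKO pools, and 0 of 83 lower miRNAs, 14 of 307 lower genes and 2 of 178 lower pairs were higher there. Counting each position once, Cdsn was at 5.34 in the controls.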

How the results depend on the processing

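Counts of miRNAs, genes and pairs that moved by more than 1.5 times were these. Counting each position once gave 384 genes higher and 346 pairs higher and 467 lower. Without the 9 names, 37 miRNAs were higher and 42 stable, 339 genes higher, and 277 pairs higher, 553 lower and 0 stable. Of the lower miRNAs 389 remained. Dividing by the median ratio of 1.91 over 107 miRNAs with at least 500 reads gave 23 miRNAs higher and 51 stable, 118 genes higher, 1596 lower and 30 stable, and 158 pairs higher and 2 stable. Higher minimums left 312 miRNAs, 2006 genes and 810 pairs tested. Of these, 115 miRNAs were lower, 317 genes higher and 222 lower, and 332 pairs higher and 246 lower. With no minimum fold 154 miRNAs were higher and 5 stable, and 0 genes and 0 pairs were stable. Stable pairs numbered 0 without reads shared between pools of a set, 2 without marked names, 4 without the miR-200 family, 3 without mitochondrial and structured targets and 2 on the gene's own strand. Leaving out the 9 names and all with a number over 1000, an alternative chosen after seeing the data, gave 23 miRNAs higher, 136 lower and 50 stable, 249 genes higher, 281 lower and 43 stable, and 159 pairs higher and 342 lower. LOC115490435 then reversed to 1.22 (0.252 to 11.6). Fewer features tested and another total are part of these settings; the cause was not tested further. No paired analysis was possible because the libraries of a group are pooled with no library name, and for the same reason no replicate could be left out. Features with few reads have wide intervals and cannot be called stable.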
